A study of Homo sapiens with 30 samples.

Results

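MYCN, the genes beside it on chromosome 2 and the genes of the MAX partner network were followed here as 10 named genes: MYCN, MYCNOS, DDX1, MYC, MAX, MNT, MXI1, MXD3, MXD4 and MGA. They were chosen by name, by no measured threshold, and all 10 were found by Ensembl gene ID in the table of each cell line. The 3 tables held 68608 gene IDs between them, 62710 in IMR32 and 57905 each in SK-N-BE(2)c and NGP. The study had sequenced RNA from these established human neuroblastoma cell lines after lipofection of antisense oligonucleotides (ASOs) at 100 nM. ASO1, ASO2 and ASO10 target NESPR, a long non-coding RNA, and NCA is the negative control ASO. IMR32 cells had received ASO1, ASO2 or NCA, with 4 libraries each. SK-N-BE(2)c and NGP cells had received ASO2, ASO10 or NCA, with 3 libraries each. Every group, controls included, therefore carried an ASO and the transfection reagent, and no untransfected cells were analysed here. Nothing in the labels says that the replicates of a group were separate cultures, so the p-values measure the spread between these libraries, which may be technical. Each line comes from a single patient's tumour, and NESPR itself was not analysed here.

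MYCN is a transcription factor of the MYC family and the gene whose amplification marks high-risk neuroblastoma. MYC proteins bind E-box DNA only as a pair with MAX, and the MXD proteins (MXI1, MXD3 and MXD4 among them), MNT and MGA compete for the same partner and mostly lower transcription at the same sites. DDX1, an RNA helicase, is the protein-coding neighbour of MYCN and is often carried in the same amplicon, and MYCNOS is a transcript from the opposite strand of the MYCN locus.

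Reads recovered per library ran from 9393587 to 15060356, and the fits tested 17309 genes in IMR32, 13556 in SK-N-BE(2)c and 14440 in NGP. Genes with a limma adjusted p under 0.05 are said to be called, higher or lower. Markers of adrenergic neuroblastoma cells were high in every group. Of those 11 markers, 8 were called lower and 0 higher with ASO10 in SK-N-BE(2)c (31.1% and 27.8% of all genes), and 6 lower and 4 higher with ASO2 (33.4% and 33.6%). NGP had 8 lower and 1 higher with ASO10 (27.6% and 26.8%), and 6 lower and 2 higher with ASO2 (28.1% and 30.6%). IMR32 had 4 lower and 1 higher with ASO1 (14.4% and 13.6%), and 5 lower and 0 higher with ASO2 (14.8% and 17.6%). The summed level of the 11 ran from 52018 to 53833 normalized counts in NGP with NCA, from 46306 to 47365 with ASO2 and from 44347 to 46019 with ASO10. SK-N-BE(2)c libraries ran from 61709 to 67822 with NCA, from 60369 to 61892 with ASO2 and from 55555 to 57558 with ASO10. IMR32 ranged from 32653 to 34266 with NCA, from 30727 to 33731 with ASO1 and from 29852 to 31985 with ASO2. Markers of mesenchymal neuroblastoma cells, 8 genes, summed to 11416 to 11597 in NGP with NCA, 14644 to 15598 with ASO2 and 12330 to 13066 with ASO10. The same sum was 3488 to 3677 in SK-N-BE(2)c with NCA, 4480 to 4607 with ASO2 and 4125 to 4347 with ASO10. IMR32 had 4434 to 5139 with NCA, 4043 to 4774 with ASO1 and 4904 to 5345 with ASO2. PRRX1 was at 3 reads or fewer in IMR32 and SK-N-BE(2)c libraries, and YAP1 in NGP libraries. Only 4 of the 8 were tested in NGP, with 2 called higher and 2 lower with each ASO. SK-N-BE(2)c also had 4 tested, with 1 higher and 1 lower with each ASO. In IMR32, of 7 tested, 1 was higher and 1 lower with ASO1, and 2 and 1 with ASO2. The shares of all genes are those given for the adrenergic markers. The summed level of 3 leukocyte markers was at most 15.3 normalized counts in any library, with CD3E at 3 reads or fewer in every library, and that of 3 Schwann and glial markers was at most 24.3, with SOX10 at 3 reads or fewer throughout. The sum of 3 epithelial markers was at most 37.9, and it ran from 8.19 to 11.3 in NGP with NCA and from 18.7 to 27.5 with ASO10, where EPCAM was called higher. In SK-N-BE(2)c that sum ran from 7.71 to 13.1 with NCA and from 26.4 to 27.6 with ASO2, where KRT8 was called higher. The endothelial markers PECAM1 and CDH5 summed to 35.8 to 56.6 in IMR32 with NCA, 49.3 to 78.5 with ASO1 and 42.2 to 57.4 with ASO2. PECAM1 was not analysed in the other lines, where CDH5 was at most 20.8, in SK-N-BE(2)c with ASO2. The part of these marker differences in the results below was not tested, and in bulk RNA fewer cells of a type and less RNA per cell cannot be told apart.

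In control cells MYCN RNA stood far above that of its partner MAX and of the repressive partners. Per kilobase of annotated exon, MYCN stood at 10794 normalized counts in IMR32 (SD 354, n = 4), 17471 in NGP (SD 744, n = 3) and 11574 in SK-N-BE(2)c (SD 771, n = 3). That placed it 19th of 16636 genes with a known length in IMR32, 16th of 14075 in NGP and 16th of 13242 in SK-N-BE(2)c. MAX, the shared partner, was at 154, 235 and 236 per kilobase in the same order of lines. MYCN thus exceeded MAX by a ratio per kilobase of 70.1 ± 2.1 (SD, n = 4) in IMR32, 74.3 ± 4.0 (SD, n = 3) in NGP and 49.1 ± 3.6 (SD, n = 3) in SK-N-BE(2)c. MYC was at the other end, with 4.53, 4.24 and 1.34 per kilobase.

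**Figure D1:**
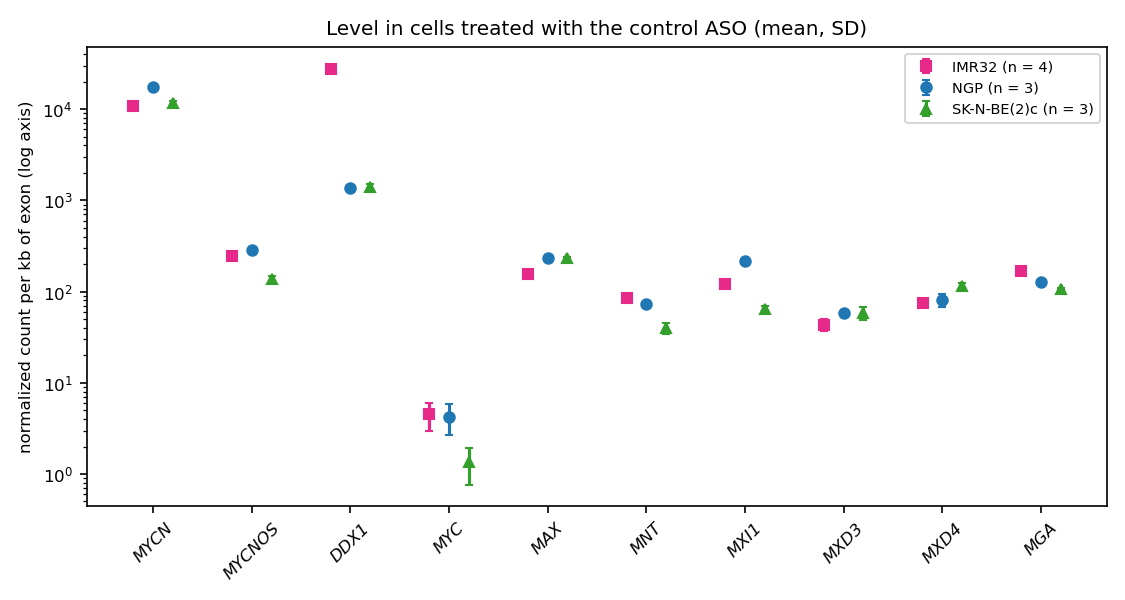
Level of each gene in cells treated with the control ASO, as normalized counts per kilobase of exon on a log axis (mean and SD, n as in the key). MYCN lies between 10794 and 17471 in the 3 lines, MAX between 154 and 236, and DDX1 is the gene whose place differs most, at 27273 in IMR32. IMR32 was scaled apart from the other lines.

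DDX1 separated the lines. It was at 27273 per kilobase in IMR32 controls, 14th of all ranked genes and above MYCN. NGP and SK-N-BE(2)c controls had 1365 and 1387, with ranks of 266 and 260. Among the repressive partners the order per kilobase in IMR32 controls was MGA (166), MXI1 (122), MNT (85.6), MXD4 (75.8) and MXD3 (43.2). The order depends on the exon lengths used: by normalized counts MNT (747) stood above MXI1 (564) there. In NGP the order per kilobase was MXI1 (219), MGA (127), MXD4 (81.7), MNT (72.9) and MXD3 (58.0), where the ranges of MXD4 and MNT overlapped. SK-N-BE(2)c had MXD4 (114) and MGA (108) first, with overlapping ranges, then MXI1 (64.7) and MXD3 (58.4), again overlapping, and MNT (39.6). Because the NGP and SK-N-BE(2)c tables shared one scaling, their controls could be compared by limma. Of the 10 genes, 1 was higher in SK-N-BE(2)c, where 37.3% of all tested genes were called higher, and 6 were lower, where 39.8% were. The control libraries of 7 genes did not overlap between the lines, against 77.0% of all genes. MXD4 was the higher one (log2 difference 0.49, SE 0.10), and MXI1 differed most (-1.75, SE 0.08), with MYCNOS at -1.03 (SE 0.09). MYC, counted among the 6, was at -1.47 (SE 0.42), with a mean of 4.02 normalized counts in SK-N-BE(2)c controls, from at most 5 reads. It passed the minimum mean of 10 only through the higher NGP libraries, so its call carries no weight of its own. MYCN itself was 0.60 lower on the log2 scale (-0.60, SE 0.06). DDX1, MAX and MXD3 were not called, with 95% intervals of the log2 difference from -0.09 to 0.13, from -0.11 to 0.12 and from -0.27 to 0.26.

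Against NCA, more of the 10 genes were called in SK-N-BE(2)c and NGP than in IMR32, as were more of all genes. With ASO1 in IMR32, 2 were higher (13.6% of all tested genes were called higher) and 1 was lower (14.4% were called lower). With ASO2 in IMR32, 3 were higher (17.6% of all genes) and 1 was lower (14.8%). In NGP, 7 were higher (30.6%) and 2 lower (28.1%) with ASO2, and 4 were higher (26.8%) and 3 lower (27.6%) with ASO10. MYC was under the minimum mean of 10 in the SK-N-BE(2)c table, which left 9 genes there. Of these, 4 were higher (33.6%) and 3 lower (33.4%) with ASO2, and 2 were higher (27.8%) and 5 lower (31.1%) with ASO10. Treated and control libraries did not overlap for 3 of the 10 genes with ASO1 and 2 with ASO2 in IMR32, where 27.6% and 30.4% of all genes did not. The same held for 9 genes with ASO2 and 6 with ASO10 in NGP, where it held for 62.4% and 59.1% of all genes, and for 7 and 8 genes in SK-N-BE(2)c, where it held for 69.3% and 64.7%. The median log2 fold change over the tested members was 0.01 with ASO1 and 0.11 with ASO2 in IMR32. With ASO2 and ASO10 it was 0.26 and 0.10 in NGP, and 0.20 and -0.27 in SK-N-BE(2)c. Over all tested genes it lay between -0.03 and 0.01 in these 6 comparisons. Both ASOs of a line were compared with the same control libraries, so their values share that error.

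**Figure D2:**
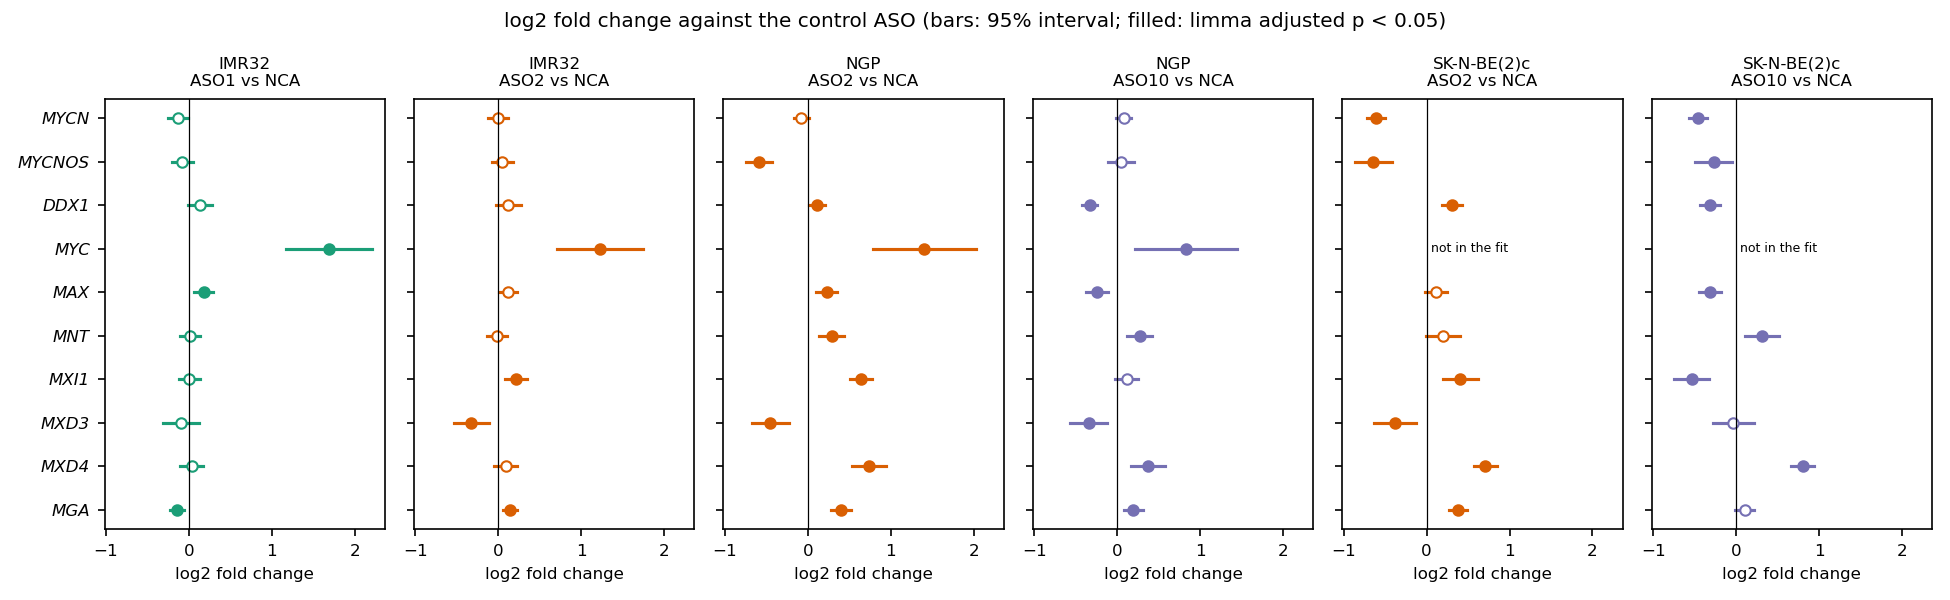
Log2 fold change of each gene against the control ASO of its line (x axis), with its 95% interval, in 6 comparisons. Filled points had a limma adjusted p under 0.05. MYCN is filled only in SK-N-BE(2)c, at -0.61 and -0.46, and MYC lies to the right of 0 in IMR32 and NGP, from 0.83 to 1.69.

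MYCN fell with both ASOs in SK-N-BE(2)c, and in IMR32 and NGP it was not called under the main settings. It stood in SK-N-BE(2)c at 32304, 28362 and 29682 normalized counts in the 3 NCA libraries. With ASO2 it was at 19952, 20723 and 18322, and with ASO10 at 22840, 21183 and 21687. Every treated library was below every control library, and the groups did not overlap. The log2 fold change was -0.61 with ASO2 (SE 0.05, limma adjusted p = 5.94e-11) and -0.46 with ASO10 (SE 0.05, adjusted p = 2.90e-08). NGP libraries had 46057, 43295 and 47028 with NCA, 44222, 44378 and 40482 with ASO2, and 47338, 46430.5 and 50133 with ASO10, and each treated group overlapped the controls. The log2 fold changes there were -0.08 (95% interval -0.17 to 0.01, adjusted p = 0.127) and 0.08 (-0.01 to 0.17, adjusted p = 0.144). When all libraries were brought to the same total instead, the ASO2 value in NGP became -0.15 with a limma adjusted p of 0.00602. That scaling moved the median log2 fold change over all genes from 0.009 to -0.060 in this comparison. Under the main scaling the ASO2 value passed without NCA replicate 2 (-0.11, adjusted p = 0.0396).

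IMR32 had MYCN at 29394, 27893, 27230.4 and 27829 with NCA, at 27659, 24577, 24346 and 25797 with ASO1 and at 30754, 28358, 26202 and 26997 with ASO2. Only the highest of the ASO1 libraries reached into the control range. Its log2 fold change with ASO1 was -0.14 (95% interval -0.26 to -0.02), which did not pass the adjustment over all genes (limma adjusted p = 0.0862). The ASO1 value passed without ASO1 replicate 1, the highest of its group (-0.17, adjusted p = 0.0176). It also passed with a block for replicate number (limma adjusted p = 0.000288), although the numbers did not meet the rule for pairing. With ASO2 it was -0.003 (SE 0.06, interval -0.12 to 0.12, adjusted p = 0.981).

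The difference between SK-N-BE(2)c and NGP in the response of MYCN was itself tested in a fit over their 18 libraries. The ASO2 effect was lower in SK-N-BE(2)c by a log2 difference of -0.53 (SE 0.08, limma adjusted p = 9.45e-05), and of the 10 genes 1, MYCN, was lower in that test (7.95% of all genes were called lower) and 0 were higher (8.79%). The ASO10 effect on MYCN differed by -0.54 (SE 0.08, adjusted p = 8.02e-05), and here 2 of the 10 genes were lower (8.78% of all genes) and 1 was higher (8.09%). MYCN was lower with ASO2 than with ASO10 in both lines, by -0.16 in NGP (adjusted p = 0.00373) and by -0.16 in SK-N-BE(2)c (adjusted p = 0.012). The second of these did not pass without ASO2 replicate 3 (adjusted p = 0.101) or without ASO10 replicate 1 (0.0687).

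**Figure D3:**
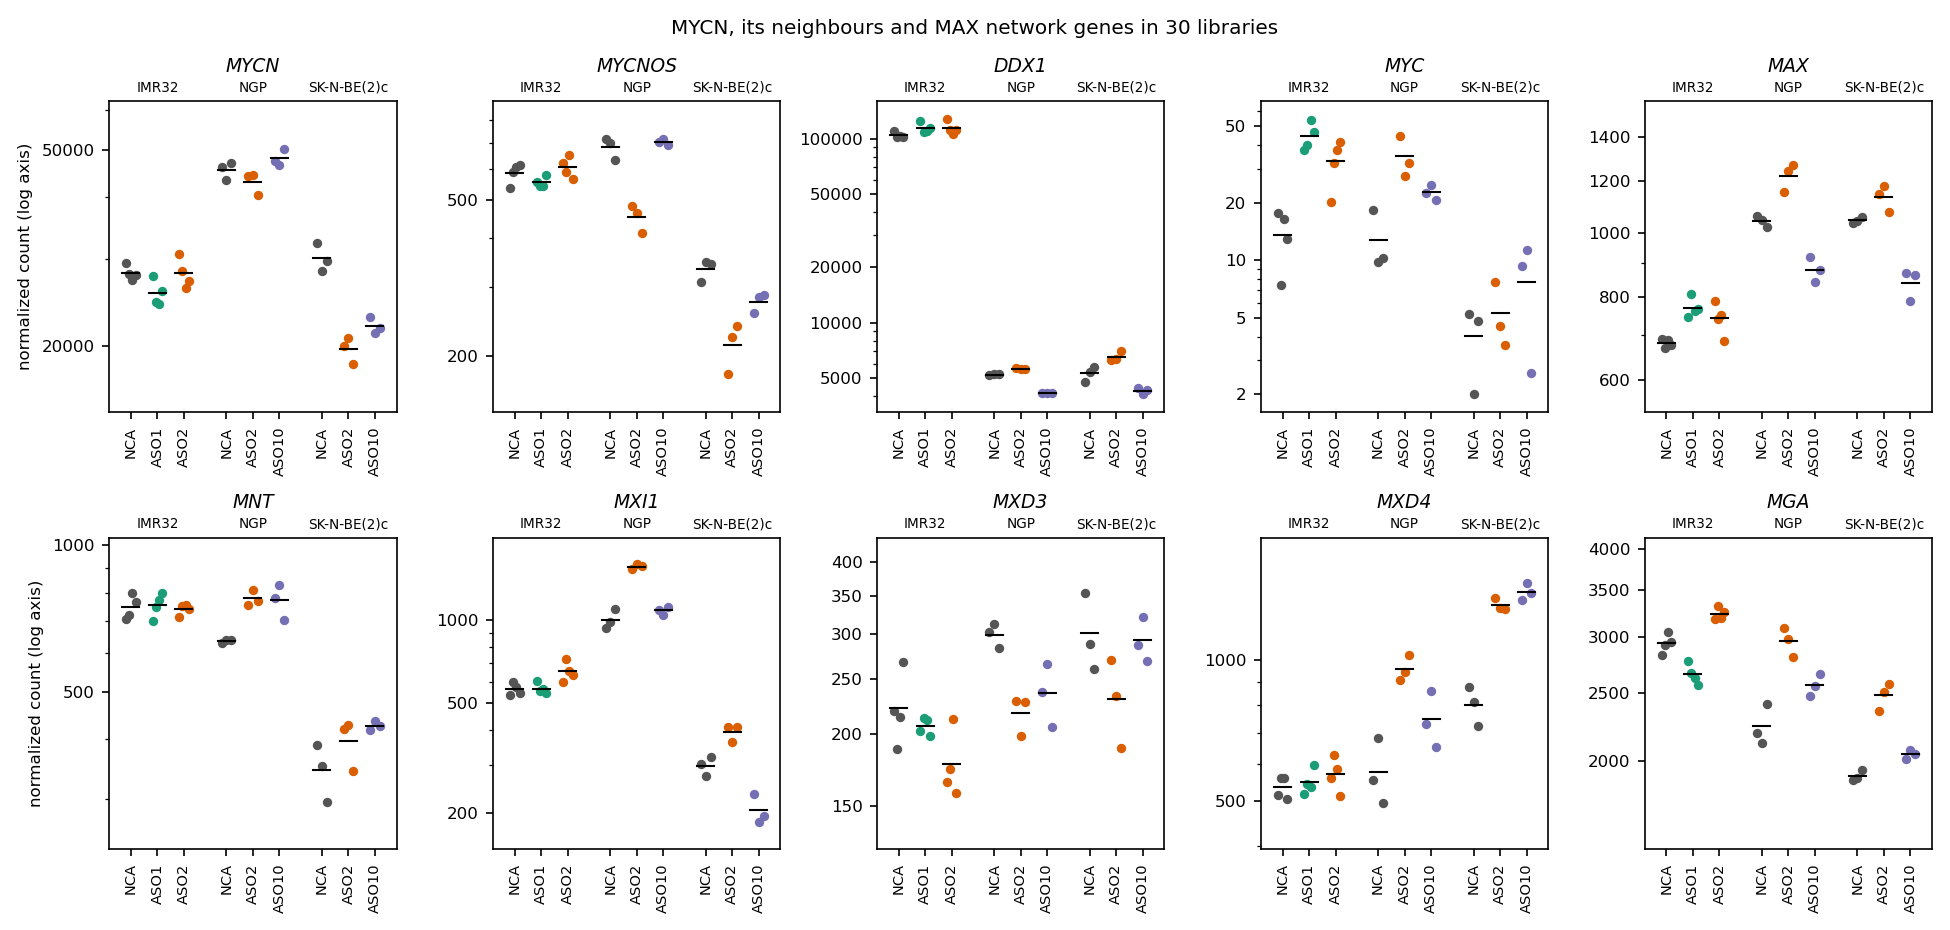
Normalized count (log axis) of each of the 10 genes in all 30 libraries, by line and ASO; points are libraries and bars are group means. The MYCN panel shows the treated SK-N-BE(2)c libraries between 18322 and 22840, below controls at 28362 or more, and the DDX1 panel shows IMR32 from 102100 to 127873 beside 4097 to 7076 in the other lines. IMR32 was scaled apart from the other lines.

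The start of MYCN is shown because it is the gene on which the comparison turns. The run below is the RefSeq sequence of the 250 bases before its start site (GRCh38.p14, chr2:15940300-15940549, plus strand), 5′ to 3′. Promoters of the same length were searched on both strands for the E-box CACGTG and for the E2F-type motifs TTTGGCGC and TTTCCCGC, and capitals mark a match.
MYCN: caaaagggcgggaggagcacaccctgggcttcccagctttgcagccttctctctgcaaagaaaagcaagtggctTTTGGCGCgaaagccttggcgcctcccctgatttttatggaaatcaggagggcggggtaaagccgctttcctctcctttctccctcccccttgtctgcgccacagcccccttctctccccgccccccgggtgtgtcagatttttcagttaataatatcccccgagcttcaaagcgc
The only match in it was TTTGGCGC, starting at position -176 from the start site. Of 35116 RefSeq promoters, 193 (0.550%) held that motif, 2228 (6.35%) held CACGTG and 488 (1.39%) held TTTCCCGC. E2F1, an activator that binds motifs of this type, was called lower in 5 of the 6 comparisons against NCA, with log2 fold changes from -0.38 to -0.14, and was at -0.004 in SK-N-BE(2)c with ASO10. Of the 3 RefSeq start sites listed for MGA, 1 also had TTTGGCGC, starting at -65. A match in sequence is a description only and does not show binding. MYCN was called lower only in SK-N-BE(2)c under the main settings, and a link between E2F1 and MYCN was not tested.

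MYCNOS fell with ASO2 in NGP and with both ASOs in SK-N-BE(2)c. The NGP libraries had 715, 701 and 633 normalized counts with NCA, 485, 465 and 413 with ASO2 and 705, 716 and 690.3 with ASO10. The ASO2 libraries were all below the others, with a log2 fold change of -0.59 (SE 0.08, limma adjusted p = 5.83e-07), while the ASO10 value was 0.05 (95% interval -0.12 to 0.21). SK-N-BE(2)c libraries had 309, 348 and 343 with NCA, 180.1, 224 and 239 with ASO2 and 258, 283 and 286 with ASO10. Neither treated group overlapped the controls, with log2 fold changes of -0.64 (SE 0.11, limma adjusted p = 6.59e-06) and -0.27 (SE 0.11, adjusted p = 0.0318). The ASO10 call did not pass without ASO10 replicate 1 (adjusted p = 0.112), NCA replicate 2 (0.106) or NCA replicate 3 (0.0848). IMR32 groups had means of 588 (NCA), 556 (ASO1) and 609 (ASO2) and were not called. In NGP the ratio of MYCN to MYCNOS per kilobase was 62.0 ± 6.1 (SD, n = 3) with NCA, 88.0 ± 3.2 with ASO2 and 63.2 ± 3.7 with ASO10. SK-N-BE(2)c had 84.3 ± 11.3, 86.6 ± 15.8 and 73.9 ± 7.2 in that order of groups. IMR32 had 44.5 ± 4.2 (SD, n = 4) with NCA, 42.7 ± 2.3 with ASO1 and 42.9 ± 3.9 with ASO2. The exons of MYCN and MYCNOS share 98 bases on opposite strands in GENCODE release 29, which is 3.77% of MYCN and 4.06% of MYCNOS. The sources used here do not say whether counting used strand, so reads in that stretch cannot be assigned. Because MYCN stood far above MYCNOS per kilobase, such reads could be a much larger part of the MYCNOS counts than of its bases. The MYCNOS values and their changes are uncertain for that reason.

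DDX1 moved in opposite directions with ASO2 and ASO10. It was at 4804, 5402 and 5746 normalized counts with NCA, at 6253, 6368 and 7076 with ASO2 and at 4406, 4097 and 4298 with ASO10 in SK-N-BE(2)c, so that the ASO2 group lay above and the ASO10 group below the controls. The log2 fold changes were 0.31 (SE 0.06, limma adjusted p = 5.32e-05) and -0.31 (SE 0.06, adjusted p = 5.20e-05). NGP replicates were tight, at 5191, 5257 and 5252 with NCA, 5684, 5638 and 5639 with ASO2 and 4179, 4169 and 4144 with ASO10. There the ASO10 value was -0.33 (SE 0.04, adjusted p = 7.08e-07). The ASO2 value of 0.11 (SE 0.04, adjusted p = 0.0330) did not pass in 5 of the 6 runs that left out 1 library (adjusted p up to 0.0928), nor with libraries brought to the same total (0.431). Directly compared, ASO2 exceeded ASO10 by 0.62 in SK-N-BE(2)c and 0.44 in NGP (adjusted p = 4.46e-10 and 4.51e-09).

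In IMR32, DDX1 was at 110721, 102100, 103079 and 102250 with NCA, at 124773, 109318, 109741 and 114700 with ASO1 and at 127873, 111481, 105796 and 110879 with ASO2. The log2 fold changes were 0.13 and 0.12, with 95% intervals from -0.01 to 0.28 and from -0.02 to 0.27, and neither was called. With libraries brought to the same total the ASO1 value passed (0.15, limma adjusted p = 0.0336). That scaling moved the median log2 fold change over all genes from -0.003 to 0.017 in this comparison. With a block for replicate number both passed (adjusted p = 0.000904 with ASO1 and 0.00171 with ASO2). Libraries high in DDX1 there were also high in MYCN. DDX1 per MYCN, per kilobase, ran from 2.48 to 2.57 with NCA, from 2.67 to 2.82 with ASO2 and from 3.02 to 3.06 with ASO1, and these 3 ranges did not overlap. The ratio was formed after the values were seen and carries no test. In NGP it was 0.0783 ± 0.0036 (SD, n = 3) with NCA, 0.0894 ± 0.0045 with ASO2 and 0.0590 ± 0.0026 with ASO10. SK-N-BE(2)c had 0.121 ± 0.017, 0.228 ± 0.030 and 0.132 ± 0.0020 in that order of groups.

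The other genes of the MYCN region were too few for their counts of calls to be read apart from the shares of all genes. Of 9 further transcripts listed around MYCN, 7 were tested in each of IMR32 and NGP and 5 in the SK-N-BE(2)c libraries. With ASO1 in IMR32, 1 was higher and 1 lower (13.6% and 14.4% of all genes), and with ASO2 0 and 1 (17.6% and 14.8%). Without ASO1 replicate 2, ASO1 replicate 3 or NCA replicate 3, the ASO1 count was 1 in place of 2. In NGP 3 were higher and 3 lower with ASO2 (30.6% and 28.1%), and 0 and 3 with ASO10 (26.8% and 27.6%). SK-N-BE(2)c had 0 and 3 of 5 with ASO2 (33.6% and 33.4%), and 1 and 4 of 5 with ASO10 (27.8% and 31.1%). NBAS, which encodes a protein of Golgi-to-ER transport and lies next to DDX1 on the side away from MYCN, fell in all 6 comparisons. Its means in IMR32 were 72661 ± 718 (SD, n = 4) with NCA, 52615 ± 1442 with ASO1 and 57583 ± 782 with ASO2, for log2 fold changes of -0.47 and -0.34. In NGP NBAS went from 1422 ± 175 (SD, n = 3) to 585 ± 44 with ASO2 (log2 fold change -1.27) and to 818 ± 32 with ASO10 (-0.79). SK-N-BE(2)c went from 752 ± 12 to 273 ± 31 (-1.46) and 494 ± 62 (-0.61). The limma adjusted p was 5.41e-05 or less in each of these comparisons, while DDX1, next to it, rose, fell or was not called.

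A few neighbours were picked out after their values were seen. LRATD1, which lies beyond NBAS, had a mean of 28518 normalized counts in IMR32 controls, 2.33 in SK-N-BE(2)c and 521 in NGP. CYRIA, the next protein-coding gene on the far side of MYCN, had means of 83.3, 3.73 and 1885 in the same order. CYRIA fell in NGP with ASO2 (log2 fold change -0.94, limma adjusted p = 3.97e-11) and by less with ASO10 (-0.19, adjusted p = 0.0259, groups overlapping). GEN1, a Holliday junction resolvase, fell with ASO10 in SK-N-BE(2)c (-1.41) and NGP (-0.84), and its ASO2 values were -0.38, also called, and 0.04. MYCNUT, a further transcript at the locus, had group means of 4.67 normalized counts or less in every group.

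MYC rose in IMR32 and NGP from a low level. IMR32 libraries had 17.7, 7.40, 16.5 and 12.9 normalized counts with NCA, 37.4, 39.9, 54.0 and 46.8 with ASO1, and 20.2, 32.01, 37.7 and 41.1 with ASO2. Both treated groups lay above all controls. The log2 fold changes, on the log2(value + 1) scale that understates changes of low genes, were 1.69 (SE 0.25, limma adjusted p = 3.31e-05) and 1.23 (SE 0.25, adjusted p = 0.000871). In NGP the libraries had 18.2, 9.75 and 10.3 with NCA, 44.6, 27.6 and 32.3 with ASO2 and 22.4, 24.7 and 20.7 with ASO10. These groups did not overlap the controls either, with fold changes of 1.41 (SE 0.30, adjusted p = 0.000276) and 0.83 (SE 0.30, adjusted p = 0.0220). The NGP ASO10 call did not pass without the filter on low values (adjusted p = 0.0639), without ASO10 replicate 2 (0.0689), without NCA replicate 2 (0.0806) or without NCA replicate 3 (0.0641). Values for MYC in SK-N-BE(2)c were 5.23, 2.02 and 4.82 with NCA, 7.73, 4.53 and 3.599 with ASO2 and 9.30, 11.3 and 2.58 with ASO10. All 3 groups overlapped there. Two-sided exact permutation tests over n = 3 against 3 libraries gave p = 0.6 and p = 0.3, where 0.1 is the smallest p this design allows, so that the test could not pass the threshold. These values rest on 2 to 11 reads per library. Even at its highest, MYC stayed at a level per kilobase of 14.8 in IMR32 with ASO1, beside 9837 for MYCN in the same cells.

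MAX went in opposite directions with ASO2 and ASO10 in NGP. It was at 1061, 1046 and 1021 normalized counts in NGP with NCA, at 1154, 1241 and 1267 with ASO2 and at 919, 843 and 879 with ASO10, with no overlap between the groups. Its log2 fold changes were 0.23 (SE 0.06, limma adjusted p = 0.00389) and -0.24 (SE 0.06, adjusted p = 0.00229). In SK-N-BE(2)c MAX was at 1036, 1044 and 1057 with NCA, 1146, 1178 and 1075 with ASO2 and 870.4, 791 and 863 with ASO10. The ASO10 value of -0.31 (SE 0.07, adjusted p = 0.000151) was called. The ASO2 value of 0.11 (95% interval -0.02 to 0.25, adjusted p = 0.120) was not, although its libraries were all above the controls, and it turned to -0.02 when libraries were brought to the same total, a scaling that moved the median log2 fold change over all genes from -0.02 to -0.15 in this comparison. IMR32 had means of 682 ± 10 (SD, n = 4) with NCA, 771 ± 27 with ASO1 and 743 ± 43 with ASO2. MAX was called there with ASO1 (0.18, adjusted p = 0.0151), except without ASO1 replicate 2 (0.0550). It was not called with ASO2 (0.12, adjusted p = 0.0815), except without ASO2 replicate 4 (0.0341) or with a replicate block (0.0315).

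MXD4, a MAX partner that recruits SIN3 corepressors, rose with both ASOs in SK-N-BE(2)c and in NGP. NGP libraries had 555, 681 and 494 normalized counts with NCA, 906, 942 and 1027 with ASO2 and 731, 859 and 652 with ASO10. Only the lowest ASO10 library fell within the control range. SK-N-BE(2)c values were 875, 815 and 722 with NCA, 1356, 1294 and 1284 with ASO2 and 1347, 1462 and 1389 with ASO10, far apart from the controls. Log2 fold changes were 0.74 (SE 0.10, limma adjusted p = 6.12e-07) and 0.38 (SE 0.10, adjusted p = 0.00248) in NGP, and 0.71 (SE 0.07, adjusted p = 4.56e-10) and 0.80 (SE 0.07, adjusted p = 7.52e-11) in SK-N-BE(2)c. The ASO10 effect was larger in SK-N-BE(2)c than in NGP by 0.43 (adjusted p = 0.0357, with 16.9% of all genes called), but this call did not pass in 8 of the 12 runs that left out 1 library (adjusted p up to 0.125). IMR32 means were 535, 549 and 571 for NCA, ASO1 and ASO2, with 95% intervals of the log2 fold change from -0.10 to 0.17 and from -0.05 to 0.23.

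MXI1, the second of the SIN3-recruiting partners, went up with ASO2 and parted between lines with ASO10. In NGP it was at 938, 987 and 1095 with NCA, at 1532, 1595 and 1569.6 with ASO2 and at 1093, 1045 and 1122 with ASO10. The ASO2 libraries were separate from all others (log2 fold change 0.64, SE 0.07, limma adjusted p = 7.37e-09), and the ASO10 value was 0.11 (95% interval -0.02 to 0.25), called only without NCA replicate 3 (adjusted p = 0.0180). Its SK-N-BE(2)c libraries were at 301, 272 and 319.97 with NCA, 409.9, 363 and 410.3 with ASO2 and 235, 186 and 196 with ASO10, with no overlap. It rose with ASO2 (0.41, SE 0.10, adjusted p = 0.00118) and fell with ASO10 (-0.53, SE 0.10, adjusted p = 7.27e-05). The ASO10 effects of the 2 lines differed by -0.65 (SE 0.12, adjusted p = 0.000684). IMR32 means were 564 ± 29 (SD, n = 4) with NCA, 566 ± 26 with ASO1 and 654 ± 55 with ASO2. The ASO2 value there (0.21, adjusted p = 0.0132) did not pass without ASO2 replicate 2 (0.0657).

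MXD3, which is known from proliferating cells, was lower in 4 of the 6 comparisons against NCA and higher in none. NGP means went from 299 ± 15 (SD, n = 3) with NCA to 218 ± 17 with ASO2 and 236 ± 30 with ASO10, and no treated library reached the lowest control at 283. Fold changes on the log2 scale were -0.45 (SE 0.11, limma adjusted p = 0.000873) and -0.35 (SE 0.11, adjusted p = 0.00926), and the second did not pass without ASO10 replicate 3 (0.0714). With ASO2 in SK-N-BE(2)c the value was -0.38 (adjusted p = 0.00737), with overlapping groups and no call without ASO2 replicate 3 (0.0833) or NCA replicate 1 (0.0812). ASO10 gave -0.03 there (95% interval -0.28 to 0.22). IMR32 had -0.32 with ASO2 (adjusted p = 0.0190), with no call without ASO2 replicate 4 (0.0695) or NCA replicate 4 (0.0942), and -0.09 with ASO1. MXD3 shares 17.97% of its exon bases with RAB24 on the same strand and 22.47% with PRELID1 on the other, so its counts are uncertain.

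MNT and MGA rose in several groups. MNT, the broadly expressed MAX partner, had 630.1, 639.8 and 638 normalized counts in NGP with NCA, 756, 811 and 769 with ASO2 and 779.5, 830.2 and 702 with ASO10. Neither treated group overlapped the controls, at log2 fold changes of 0.29 (SE 0.07, limma adjusted p = 0.00140) and 0.27 (SE 0.07, adjusted p = 0.00270). The ASO2 and ASO10 libraries overlapped each other. SK-N-BE(2)c libraries had MNT at 388, 351 and 297 with NCA, 419, 428 and 343 with ASO2 and 417, 435 and 424 with ASO10. ASO10 was called (0.31, adjusted p = 0.00970), except without NCA replicate 3 (0.0922). ASO2 was not (0.20, 95% interval -0.004 to 0.41), except without ASO2 replicate 3 (adjusted p = 0.0129) or NCA replicate 1 (0.0194), or with a replicate block (0.0462). IMR32 gave 0.01 and -0.02 for MNT with ASO1 and ASO2. MNT shares 12.2% of its exon bases with an RNA gene on the other strand (ENSG00000262456), so its counts are uncertain.

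MGA, the large partner that belongs to a Polycomb complex called PRC1.6, had 2189, 2121 and 2410.1 normalized counts in NGP with NCA, 3092, 2979 and 2811 with ASO2 and 2474, 2554 and 2655 with ASO10. Every treated NGP library was above the controls (0.40 with ASO2, limma adjusted p = 1.54e-06, and 0.19 with ASO10, adjusted p = 0.00596, on the log2 scale). SK-N-BE(2)c had 1878, 1890.4 and 1943 with NCA, 2357, 2507 and 2573 with ASO2 and 2013, 2076 and 2046 with ASO10. The ASO2 rise was called (0.38, SE 0.05, adjusted p = 5.91e-07) and the ASO10 value was not (0.10, 95% interval -0.01 to 0.21, adjusted p = 0.105), although its libraries were all above the controls and edgeR called it (adjusted p = 0.0458). In IMR32, MGA was the member on which the ASOs differed most clearly. It was at 2830.3, 2919.8, 3044 and 2954 with NCA, at 2771, 2666, 2623 and 2563 with ASO1 and at 3178, 3317, 3193 and 3257 with ASO2. ASO1 libraries were below and ASO2 libraries above all controls, with fold changes of -0.15 (adjusted p = 0.0132, and 0.0538 without NCA replicate 3) and 0.14 (adjusted p = 0.0149).

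The promoters of MXD4 and MNT are shown because both genes were called higher with ASO10 in both lines that received it and because both hold the E-box CACGTG that MYC-MAX and MXD-MAX pairs bind. They are the 250 bases before the RefSeq start site (GRCh38.p14), for MXD4 chr4:2262110-2262359 and for MNT chr17:2401061-2401310, both on the minus strand and written 5′ to 3′, with the match in capitals.
MXD4: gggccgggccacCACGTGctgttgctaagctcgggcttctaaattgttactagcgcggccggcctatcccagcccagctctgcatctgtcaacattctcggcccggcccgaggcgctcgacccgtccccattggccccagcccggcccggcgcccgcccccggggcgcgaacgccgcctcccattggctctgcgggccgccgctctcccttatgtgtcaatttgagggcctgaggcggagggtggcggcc
MNT: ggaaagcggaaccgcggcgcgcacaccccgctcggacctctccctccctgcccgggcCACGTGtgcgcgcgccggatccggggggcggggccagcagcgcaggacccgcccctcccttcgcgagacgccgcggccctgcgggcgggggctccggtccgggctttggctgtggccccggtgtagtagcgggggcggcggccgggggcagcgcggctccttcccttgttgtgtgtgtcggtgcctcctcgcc
The E-box starts at position -238 in MXD4 and -193 in MNT. RefSeq start sites were found for 9 of the 10 genes, with MYC unmatched. None of the promoters of the other 7 matched genes held CACGTG, which says only that these letters are not in those windows. MXD4 and MNT were picked by their calls and by the motif, so the match does not tie the motif to the rise. With ASO2, MXI1 and MGA, without CACGTG here, were called higher in NGP and SK-N-BE(2)c, while MNT was not called in SK-N-BE(2)c. In IMR32 neither MXD4 nor MNT was called. A part for the motif was not tested.

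ASO2 and ASO10 could be compared directly in SK-N-BE(2)c and NGP. In NGP 5 of the 10 genes were higher with ASO2 (30.6% of all genes) and 2 lower (28.0%), and 8 did not overlap (65.0%). In SK-N-BE(2)c 4 of 9 were higher (34.6%) and 3 lower (30.8%), and 6 did not overlap (68.2%). DDX1, MAX, MXI1 and MGA were higher with ASO2 in both lines. For MAX the log2 difference was 0.43 in SK-N-BE(2)c and 0.47 in NGP, for MXI1 it was 0.94 and 0.53, and for MGA it was 0.28 and 0.21 (limma adjusted p of 0.00307 or less in each). MYCN and MYCNOS were lower with ASO2 in both, MYCNOS by -0.37 and -0.63. In IMR32, 0 of the 10 were higher with ASO1 than with ASO2 (9.17% of all genes), 2 were lower (12.8%), and 1 did not overlap (21.0%). These were MGA (-0.29, adjusted p = 5.88e-05) and MXI1 (-0.20, adjusted p = 0.0233), of which MXI1 did not pass in 4 of the 8 runs that left out 1 library (adjusted p up to 0.103).

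The balance of the network was set out as ratios of levels per kilobase within each library. MYCN over the summed level of MXD3, MXD4, MXI1, MNT and MGA was 30.1 ± 1.2 (SD, n = 3) in SK-N-BE(2)c with NCA, 15.1 ± 0.85 with ASO2 and 18.1 ± 1.0 with ASO10. In NGP it was 31.3 ± 1.8 with NCA, 21.3 ± 1.2 with ASO2 and 29.7 ± 1.9 with ASO10. IMR32 groups stood at 21.9 ± 1.4 (SD, n = 4) with NCA, 20.6 ± 1.1 with ASO1 and 20.6 ± 2.1 with ASO2. The ranges separated from the controls with ASO2 in NGP and with both ASOs in SK-N-BE(2)c, and overlapped elsewhere. MYCN over MAX in SK-N-BE(2)c was 29.5 ± 0.47 with ASO2 and 44.4 ± 1.4 with ASO10, beside 49.1 ± 3.6 with NCA. In NGP the same ratio was 60.2 ± 5.5 with ASO2 and 92.9 ± 4.8 with ASO10, on either side of 74.3 ± 4.0 with NCA. In IMR32 it was 56.6 ± 4.9 with ASO1 and 64.4 ± 3.5 with ASO2, beside 70.1 ± 2.1. These ratios describe RNA, were formed from values already shown and carry no test.

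**Figure D4:**
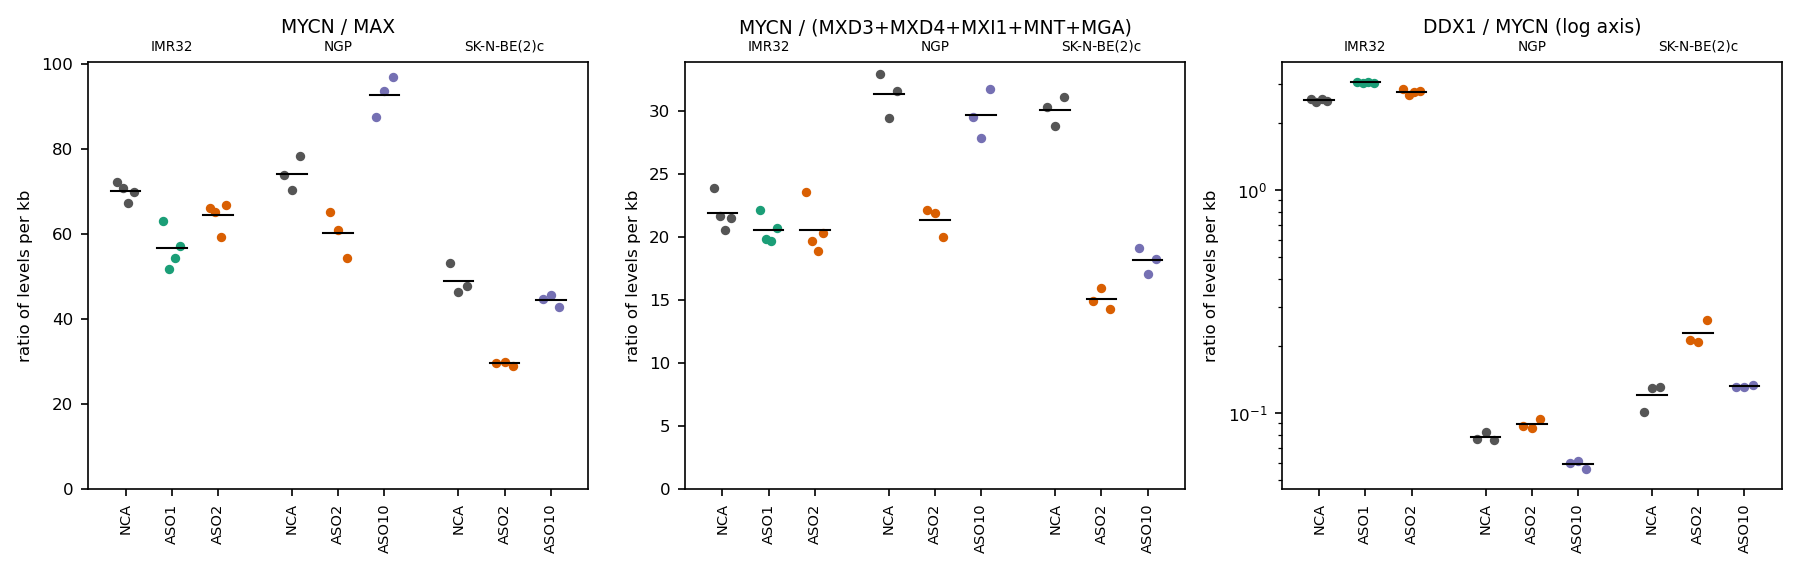
Ratios of levels per kilobase in each library, by line and ASO; points are libraries and bars are group means. In the middle panel the SK-N-BE(2)c libraries drop from about 28.9 or more with the control ASO to 19.1 or less with ASO2 and ASO10. The right panel has a log axis and shows DDX1 over MYCN from 2.48 to 3.06 in IMR32.

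Genes whose pattern was most like that of MYCN were sought among 11592 genes tested in all 3 tables, by the root mean square difference in log2(value + 1) after centring each line, over the 30 libraries. The 5 nearest were RNF144A (0.0723), SEMA6A (0.0759), FNDC3A (0.0803), SSR3 (0.0812) and SLC35E3 (0.0822), where a flat line would stand at 0.166. RNF144A encodes a ubiquitin ligase and lies on the same chromosome arm, SEMA6A a semaphorin, and SSR3 a subunit of the translocon-associated protein complex. Their log2 fold changes in SK-N-BE(2)c ranged from -0.71 to -0.52 with ASO2 and from -0.46 to -0.27 with ASO10. The measure rests on libraries that share line, scaling and controls and is a description.

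Genes around the network were read as lists beside the shares of all genes called. Those shares, higher and lower, were 13.6% and 14.4% with ASO1 and 17.6% and 14.8% with ASO2 in IMR32. In NGP they were 30.6% and 28.1% with ASO2 and 26.8% and 27.6% with ASO10. SK-N-BE(2)c had 33.6% and 33.4% with ASO2 and 27.8% and 31.1% with ASO10. Of 7 further genes of the MAX and MLX network, 2 or 3 were higher and 1 lower in each comparison, with 7 tested in IMR32 and 5 elsewhere. With ASO10 in SK-N-BE(2)c the count was 2 in place of 4 without NCA replicate 2 and without the filter on low values. MXD1, another MXD repressor, rose in NGP (log2 fold change 0.69 with ASO2 and 0.57 with ASO10) and in SK-N-BE(2)c (0.77 and 0.39), and fell with ASO1 in IMR32 (-0.72). It was at 0.25 with ASO2 in IMR32, not called (limma adjusted p = 0.0634). ARRDC4, a target of the glucose-sensing MondoA-MLX pair, was called higher in 5 of 6 comparisons, from 0.49 to 1.06. MLXIP, which encodes MondoA, was higher in 4 of 6, from 0.15 to 0.30. Its mean in NGP controls was 29043 normalized counts, beside 2152 in SK-N-BE(2)c. MYCL, the third MYC gene, was chosen after its values were seen. It rose with ASO1 in IMR32 from 155 ± 13 (SD, n = 4) to 279 ± 22 (0.84, adjusted p = 2.33e-07) and fell with ASO10 in SK-N-BE(2)c (-1.23) and NGP (-1.25), where its means were 28.3 or less.

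Of 13 MYC coactivators, 3 were higher and 1 lower with ASO1 in IMR32 (13.6% and 14.4% of all genes), and 3 and 0 with ASO2 (17.6% and 14.8%). NGP had 6 and 3 with ASO2 (30.6% and 28.1%), and 3 and 4 with ASO10 (26.8% and 27.6%). SK-N-BE(2)c had 7 and 2 with ASO2 (33.6% and 33.4%), and 4 and 3 with ASO10 (27.8% and 31.1%). Without ASO1 replicate 1 in IMR32 the ASO1 count was 7 in place of 4. CCNT1, a cyclin of the elongation factor P-TEFb, fell in NGP from 2050.3 ± 78.2 (SD, n = 3) to 831 ± 27 with ASO2 and 521 ± 9.9 with ASO10, and in SK-N-BE(2)c from 1808 ± 65 to 650.2 ± 23.7 and 390.5 ± 80.1. In IMR32 it rose with ASO1 (0.26) and was at -0.14 with ASO2 (limma adjusted p = 0.0536). EP400 and KAT2A, a chromatin remodeller and an acetyltransferase, rose in all 4 comparisons outside IMR32. With ASO1 in IMR32, EP400 was called lower (-0.26). TRRAP, the scaffold that MYC proteins bind directly, was chosen after its values were seen. It rose with ASO2 (0.57 in SK-N-BE(2)c and 0.43 in NGP) and fell with ASO10 (-1.28 and -1.50).

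The corepressor and Polycomb partners were split in direction. Of 7 genes of the SIN3 corepressor, 0 were higher and 1 lower with ASO1 in IMR32 (13.6% and 14.4% of all genes), and 1 and 0 with ASO2 (17.6% and 14.8%). NGP had 3 and 4 with ASO2 (30.6% and 28.1%), and 2 and 1 with ASO10 (26.8% and 27.6%). SK-N-BE(2)c had 2 and 3 with ASO2 (33.6% and 33.4%), and 3 and 3 with ASO10 (27.8% and 31.1%). The IMR32 count with ASO1 was 2 in place of 1 without ASO1 replicate 2 or NCA replicate 1, and that with ASO2 was 0 without ASO2 replicate 1 or 2 or NCA replicate 2 or 4. SIN3B was higher in all 4 comparisons of NGP and SK-N-BE(2)c, from 0.24 to 0.61. Of 13 partners of MGA in PRC1.6, 7 were higher and 3 lower in NGP with ASO2 (30.6% and 28.1% of all genes), and 7 and 2 with ASO10 (26.8% and 27.6%). SK-N-BE(2)c had 6 and 3 with ASO2 (33.6% and 33.4%), and 7 and 3 with ASO10 (27.8% and 31.1%). IMR32 had 3 and 1 with ASO1 (13.6% and 14.4%), and 2 and 2 with ASO2 (17.6% and 14.8%). The last count was 7 in place of 4 without ASO2 replicate 3. EHMT2, a histone methyltransferase, was higher in all 6 comparisons (0.15 to 0.64). E2F6, the repressive E2F of the complex, was higher in 5 (0.37 to 0.75), and TFDP2, a dimer partner of E2F proteins, was lower in the 4 of NGP and SK-N-BE(2)c (-0.87 to -0.27).

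**Figure D5:**
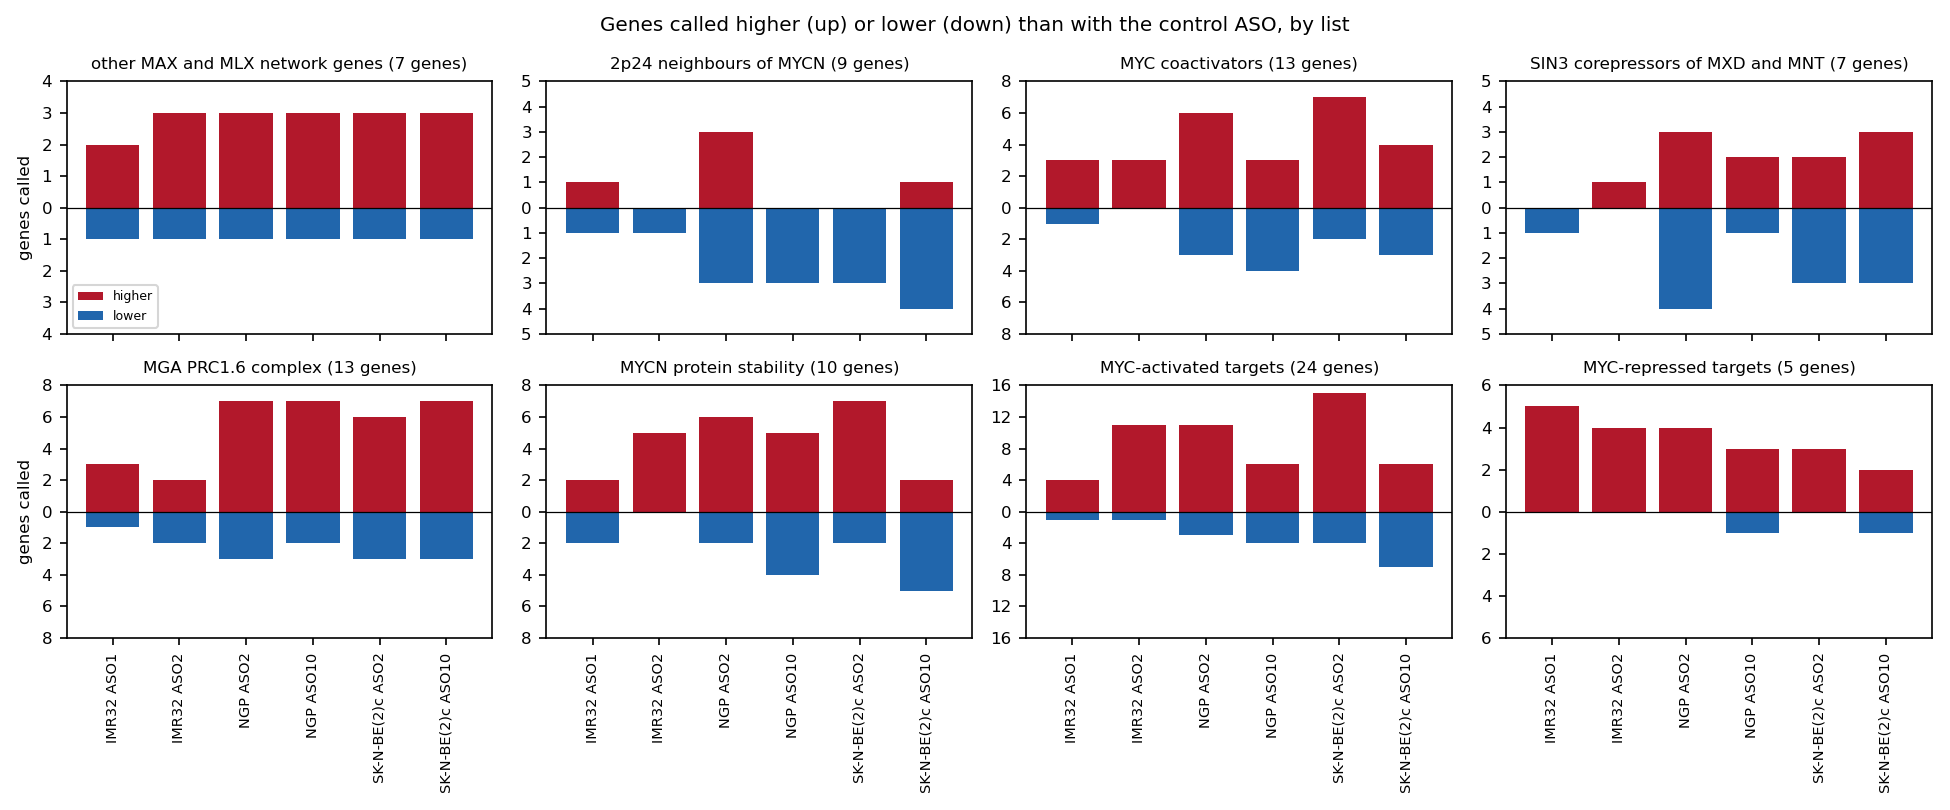
Number of genes called higher (bars up) or lower (bars down) than with the control ASO in 6 comparisons, for 8 lists of genes around the MYCN and MAX network. The PRC1.6 list has 6 or 7 genes higher in each NGP and SK-N-BE(2)c comparison, and the list of 5 genes that MYC lowers has 2 to 5 higher. Over all tested genes, the share called higher ran from 13.6% (IMR32 with ASO1) to 33.6% (SK-N-BE(2)c with ASO2).

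Of 10 listed genes that act on MYCN protein, 2 were higher and 2 lower with ASO1 in IMR32 (13.6% and 14.4% of all genes), and 5 and 0 with ASO2 (17.6% and 14.8%). NGP had 6 and 2 with ASO2 (30.6% and 28.1%), and 5 and 4 with ASO10 (26.8% and 27.6%). SK-N-BE(2)c had 7 and 2 with ASO2 (33.6% and 33.4%), and 2 and 5 with ASO10 (27.8% and 31.1%). The IMR32 count with ASO2, 5 over all libraries, was 1 without NCA replicate 3, 2 without ASO2 replicate 2 and 3 without ASO2 replicate 3 or NCA replicate 4, and the ASO1 count was 2 in place of 4 without NCA replicate 3. FBXW7, the ubiquitin ligase subunit that marks MYC proteins for degradation, rose by 1.01 on the log2 scale in NGP with ASO2 and rose by 0.35 with ASO10. In SK-N-BE(2)c it rose with ASO2 (0.64) and fell with ASO10 (-0.53), and in IMR32 it rose with ASO2 (0.47). TRIM32 was higher in 5 of 6 comparisons (0.23 to 0.45), as was PLK1 (0.19 to 0.44). AURKA, the kinase that shields MYCN from degradation, was chosen after its values were seen. It fell with ASO10 in SK-N-BE(2)c (-0.37) and NGP (-0.54) and rose with ASO2 in SK-N-BE(2)c (0.58).

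Listed targets of MYC proteins moved in both directions. Of 24 genes that MYC proteins activate, 4 were higher and 1 lower with ASO1 in IMR32 (13.6% and 14.4% of all genes), and 11 and 1 with ASO2 (17.6% and 14.8%). NGP had 11 and 3 with ASO2 (30.6% and 28.1%), and 6 and 4 with ASO10 (26.8% and 27.6%). The ASO1 count in IMR32 was 3 in place of 5 without ASO1 replicate 2, NCA replicate 2 or NCA replicate 3, and the ASO10 count in NGP was 6 in place of 10 without ASO10 replicate 1. In SK-N-BE(2)c, where MYCN fell, 23 were tested. Of these, 15 were higher and 4 lower with ASO2 (33.6% and 33.4% of all genes), and 6 were higher and 7 lower with ASO10 (27.8% and 31.1%). The median log2 fold change of the list there was 0.21 with ASO2 and -0.08 with ASO10. NOP56, a nucleolar protein of ribosome assembly, was higher in 5 of 6 comparisons (0.14 to 0.66), and TFRC, the transferrin receptor, in 5, with a fall in SK-N-BE(2)c with ASO10 (-0.32). Of 5 genes that MYC proteins repress, 5 and 4 were higher in IMR32, 4 and 3 in NGP, and 3 and 2 in SK-N-BE(2)c, with 1 lower with ASO10 in each of the last 2 lines. The shares of all genes are those just given for the same comparisons. CDKN2B and GADD45A, brakes on the cell cycle, rose in all 6 comparisons, CDKN2B by 0.45 to 2.00 and GADD45A by 0.61 to 1.03. CDKN1A, which encodes p21 and is also a p53 target, rose in 5 of 6 (0.46 to 1.62) and was at 0.38 in SK-N-BE(2)c with ASO10 (limma adjusted p = 0.0858).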

How the data were processed

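RNA sequencing of 30 libraries from 3 neuroblastoma cell lines was taken from tables of normalized gene counts, 1 per line. Per the values as deposited by the authors, this signal is the gene count divided by 1 size factor per library, and 100% of values came out as whole reads (within 0.05 of a whole number) once that factor was recovered. Per the submitters' processing notes, FastQC 0.11.8, cutadapt 1.18, STAR 2.6.0, HTSeq 0.6.1 and DESeq2 1.42.0 were used with hg19/GRCh37. Per the labels' protocols, either a stranded total RNA kit or a stranded mRNA kit was used, and which library had which is not given in the sources used here, nor is the counting of strand or the time of harvest. The IMR32 table had other gene IDs and its own scaling, so its levels were not tested against the other lines. The NGP and SK-N-BE(2)c tables shared 1 scaling (median ratio 1.012 in all 18 libraries). In IMR32, 174 entries without a gene ID (0.172% of values) stayed out. Every column of the tables was assigned from the sample titles and descriptions (0 left over).

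Genes were compared on log2(value + 1) by limma (version 3.58.1, R 4.3.3), with a mean per group and moderated variances with a trend, for those with a mean of at least 10. P-values were adjusted by Benjamini-Hochberg over all genes tested, at 0.05. Lines were compared in 1 fit of 18 libraries (14537 genes). The 10 genes and the further lists were chosen with earlier results of these data known. From each list up to 4 genes were named: those called with 1 sign in most comparisons, ordered by that number and then by mean absolute change; others are said to be chosen after their values were seen. A gene that the rule names is not reported here. Levels per kilobase used merged exon lengths of GENCODE release 29, a later annotation than the build used for counting. Promoters came from RefSeq on GRCh38.p14. The fit was tested on simulated data. Alternatives were other pseudocounts, no filter, libraries brought to the same total, edgeR 4.0.16 on recovered reads, a replicate block, only the groups compared, and leaving out each library.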

Additional observations from a re-analysis of the deposited data

Results flagged for a closer look

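DDX1 in the control ASO libraries of IMR32 had 1 value apart from the others. Replicate 1 stood at 110721 normalized counts beside 102100 to 103079 in the other 3, a gap of 0.886 of the group's range. That is above the critical value for 4 samples, which chance passes in about 1 in 20 groups. The rule was run for each of the 10 genes in every IMR32 group, so a single flag is within what chance would give. Replicate 1 was also the highest of its group for both DDX1 and MYCN with ASO1 (124773 and 27659) and with ASO2 (127873 and 30754), and for MYCN with NCA (29394). Over the runs that left out 1 IMR32 library, that one among them, the DDX1 log2 fold change against NCA ran from 0.09 to 0.16 with ASO1 and from 0.066 to 0.16 with ASO2, and DDX1 was called in 0 of them by limma.

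The response to an ASO differed between SK-N-BE(2)c and NGP, by limma's test of the difference itself, for 3 genes. MYCN differed with ASO2 (log2 difference -0.53) and with ASO10 (-0.54), and both stayed called in all 12 runs that left out 1 library. MXI1 differed with ASO10 (-0.65) and also stayed called in all 12 runs. MXD4 differed with ASO10 in the other direction (0.43), with an adjusted p over 0.05 in 8 of 12 such runs.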

How the results depend on the processing

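Called values of single genes kept their call and direction in 437 fits under other settings and in 390 with 1 library left out, and lost the call with no change of direction in 7 and 36. Values not called passed the threshold in 11 and 9. The number of the 10 genes called stayed within 1.5 times except as follows. Replicate numbers did not meet the rule for pairing: in no comparison did every pair of same-numbered libraries correlate above 0.1. Such pairs correlated from 0.05 to 0.32 between ASO1 and NCA in IMR32, where 3 of 4 correlated best with their own number. Over all comparisons they ran from -0.06 to 0.33. A replicate block raised the calls over all genes with ASO1 in IMR32 from 2354 higher and 2496 lower to 3253 and 3356. With a replicate block, 5 genes in place of 3 were called with ASO1 in IMR32, with MYCN (adjusted p = 0.000288) and DDX1 (0.000904) added, and 4 in place of 2 between ASO1 and ASO2. The block also called DDX1 (0.00171) and MAX (0.0315) with ASO2 in IMR32 and MNT (0.0462) with ASO2 in SK-N-BE(2)c. That ASO1 against ASO2 count was 1 with libraries brought to the same total and ran from 1 to 3 with 1 library left out, at 1 without ASO1 replicate 2, 3 or 4 or ASO2 replicate 2. Genes with a differing ASO2 effect between lines numbered 1 to 2 with 1 library left out, at 2 without SK-N-BE(2)c NCA replicate 3.

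Values near 0 that were not called changed sign. With libraries brought to the same total these were MAX in SK-N-BE(2)c with ASO2 (-0.022), MNT in NGP between ASO2 and ASO10 (-0.043), and DDX1 (-0.0088) and MAX (-0.024) between the controls of SK-N-BE(2)c and NGP. With edgeR they were MNT in NGP between ASO2 and ASO10 (-0.012), the ASO10 effects between lines on DDX1 (-0.0041) and MYC (0.046), and MXD3 between the controls (0.041). With 1 library left out, uncalled log2 fold changes that crossed 0 ranged as follows. In the ASO10 effect between lines, DDX1 ran from -0.056 to 0.073, MNT ran from -0.070 to 0.12 and MYC ran from -0.49 to 0.40. In IMR32 ASO1 against ASO2, DDX1 ran from -0.032 to 0.066. In the controls of SK-N-BE(2)c against NGP, DDX1 ran from -0.039 to 0.090, MAX ran from -0.010 to 0.017 and MXD3 ran from -0.13 to 0.095. In the ASO2 effect between lines, MGA ran from -0.077 to 0.015, MNT ran from -0.19 to 0.011, MXD3 ran from -0.046 to 0.21, MXD4 ran from -0.16 to 0.072 and MYCNOS ran from -0.14 to 0.065. In IMR32 ASO1 against NCA, MNT ran from -0.014 to 0.050, MXD4 ran from -0.0066 to 0.062 and MXI1 ran from -0.024 to 0.037. In IMR32 ASO2 against NCA, MNT ran from -0.043 to 0.017 and MYCN ran from -0.047 to 0.030. In NGP ASO2 against ASO10, MNT ran from -0.048 to 0.072. In SK-N-BE(2)c ASO10 against NCA, MXD3 ran from -0.13 to 0.089. In NGP ASO10 against NCA, MYCNOS ran from -0.0083 to 0.079. The causes were not tested. For the further lists, the block raised the IMR32 counts with ASO1 from 4 to 8 (coactivators), 1 to 3 (SIN3) and 5 to 13 (MYC-activated, 9 higher and 4 lower), and with ASO2 from 3 to 7 (coactivators), 1 to 2 (SIN3 and the MYCN region) and 4 to 9 (PRC1.6). Without the filter on low values, the IMR32 counts were 3 in place of 5 for MYC-activated genes with ASO1 and for MYCN protein stability with ASO2, and with the same total SIN3 was 2 in place of 1 with ASO1. Scaling to the same total turned calls over all genes from 4555 higher and 4523 lower to 3505 and 5612 for ASO2 in SK-N-BE(2)c, from 4689 and 4172 to 3678 and 5016 between ASO2 and ASO10 there, from 1588 and 2207 to 2352 and 1581 between ASO1 and ASO2 in IMR32, and from 1278 and 1155 to 847 and 1730 for the ASO2 effect between lines.

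For SK-N-BE(2)c and NGP the column of control replicate 1 is spelled differently from replicates 2 and 3, while the titles give 1 group; runs without it are among those that left out 1 library. Depth limits MYC most, at 20 or fewer normalized counts in every control library.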
